A study of Mus musculus with 16 samples.

Results

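The genes described here are those whose transcript level differed between Dnmt1c/chip and Dnmt1+/+ mice in the same direction in 2 kinds of bone marrow progenitor. Of 22180 genes measured on 16 Affymetrix arrays, 188 met this rule, 142 of them higher and 46 lower in Dnmt1c/chip cells. A gene was chosen, or called, when the mean of its genotype differences in the 2 progenitors had a limma p-value under 0.05 after Benjamini-Hochberg adjustment over all genes and when the difference had the same sign in each progenitor. Calls made up 0.64% of all genes for the higher direction, 0.207% for the lower and 0.848% for either.

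The 4 groups, with 4 arrays each, were Dnmt1c/chip macrophage-dendritic cell progenitors (MDPs), Dnmt1+/+ MDPs, Dnmt1c/chip common monocyte progenitors (cMoPs) and Dnmt1+/+ cMoPs. The mice were 8 to 12 weeks old and received no treatment that the labels record. Both progenitors were sorted from cells without lineage markers that carried high cKit and CD115 but no CD11b, and cMoPs were told from MDPs by Ly-6C on their surface. As background, the c allele of Dnmt1 is a null allele and chip a hypomorphic one, carried in the germline and so in all cells of the mouse, which means that the progenitors developed in a hypomorphic animal. Whether each array holds RNA of its own animal is not stated, and the p-values below therefore cover the spread between these samples, part of which may be technical.

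Dnmt1 is the maintenance DNA methyltransferase. It restores methylation on the new strand of CG sites after replication, and genes whose promoters are normally kept silent by methylation, most of all genes of meiosis and the germline, can be transcribed when it is lacking. MDPs give rise to dendritic cells and to cMoPs, and cMoPs give rise to monocytes; in mice with little Dnmt1 activity, blood stem cells have been found to keep myeloid and erythroid output better than lymphoid output.

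All values are log2 RMA levels, an array scale on which a difference of 1 is a 2-fold change and array medians lay between 3.43 and 3.62. Arrays correlated with the others of their group at a mean r of 0.971 to 0.987. Xist, which is expressed from the inactive X chromosome of females, lay at 9.51 to 10.65 in Dnmt1c/chip MDP replicates 1, 3 and 4, and the mean of 3 Y-linked genes lay at 5.27 to 6.42 on the same arrays. Dnmt1+/+ MDP arrays with high Xist had a Y-linked mean of 2.61 to 3.07, and no other array carried both signals. The sex of the animals is not in the labels. With these 3 arrays left out, all 188 genes kept their direction. Only replicate 2 of the Dnmt1c/chip MDPs then remains, so MDP differences rest on 1 array. A call lost in that fit cannot be told from a loss of precision. With Xist and Y-linked levels as covariates, all 188 kept their direction and 54 their call. Of the 46 genes named by rule, 15 lost the call in both of these fits: Mgam, Gata2, Cd177, Dio2, Ccnd1, Fcgr3, Hoxa7, Csf2ra, Xaf1, Ifngr1, H2-K1, Pop5, Kif23, Adgra3 and Ahnak. A further 5 lost it with the covariates alone (Syce1, Trem3, Blvrb, Ly6c2 and Dpp4) and 2 without the 3 arrays alone (Selp and Siglech). Immediate early and stress genes, which respond within minutes to handling of cells, had a median difference of −0.67 with 0 of 30 called by limma and 13 at an unadjusted p under 0.05, which 10.7% of all genes reached. Where the lower genotype mean of a progenitor lay below 3.53, the middle of the range of array medians, a difference is taken as a lower limit. This touched 22 of the higher genes and 19 of the lower genes, among those named by rule Tex12, Slc25a31, Mgam, Trem3, Cd177, Dio2, Slfn4, Fcgr3, Epb41l4b, Clip4, Gpc3, Ctsf, Siglech and Dntt. The part of the immediate early genes in the results below was not tested beyond a fit with their level as a covariate, which called 103 genes higher and 31 lower.

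Dnmt1 itself was lower in Dnmt1c/chip cells on every array. Its level was 8.89, 8.36, 8.97 and 8.79 on the Dnmt1c/chip MDP arrays and 9.82, 9.81, 9.86 and 9.95 on the Dnmt1+/+ MDP arrays. In cMoPs it was 8.82, 8.70, 9.004 and 8.98 with Dnmt1c/chip and 9.80, 9.66, 9.80 and 9.86 with Dnmt1+/+. The genotypes did not overlap in either progenitor. The mean difference was −1.01 (SE 0.097, 2.01-fold lower, limma adjusted p = 4.79e-05), and an exact permutation test of the genotypes within each progenitor gave a two-sided p of 0.000408, the smallest that its 4900 arrangements allow. The reductions in cMoPs and in MDPs differed by 0.20 (SE 0.19, unadjusted p = 0.322). Of the 17 measured writers, erasers and readers of DNA methylation, Dnmt1 was the one called, and the median of the list was −0.02, against 0.00 over all genes. As the arrays report RNA of sorted populations, fewer cells of a type and less RNA per cell cannot be told apart here or below.

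**Figure D1:**
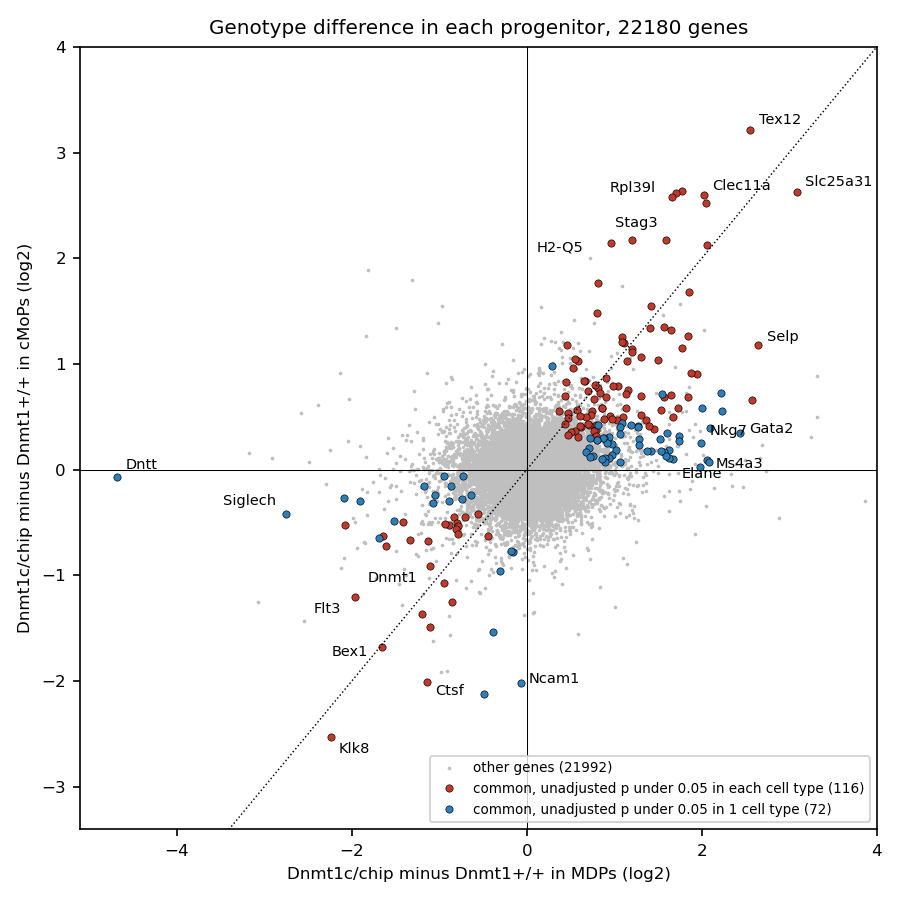
Genotype difference (Dnmt1c/chip minus Dnmt1+/+, log2) of each of 22180 genes in MDPs (x axis) and in cMoPs (y axis); the dotted line marks equal differences. Red points are the 116 called genes with an unadjusted p under 0.05 in each progenitor, blue points the 72 called genes that reached it in 1 progenitor, and grey points all other genes. Tex12, Slc25a31, Clec11a and Klk8 lie far out near the dotted line, whereas Elane, Ms4a3, Gata2 and Dntt lie along the MDP axis.

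Tex12 and Slc25a31, genes of meiosis and the testis, had the 2 largest mean differences among the genes called higher, and promoters of called germline genes are shown first because loss of maintenance methylation acts on CG sites. The sequences are the 250 bases before the annotated start from RefSeq (build GRCm38.p6), written 5′ to 3′ on the strand of the gene with each CG dinucleotide in capitals. Tex12 encodes a protein of the central element of the synaptonemal complex, which joins paired chromosomes in meiosis, and its window is chr9:50561269-50561518 on the minus strand. Slc25a31 encodes the ADP/ATP carrier of germ cell mitochondria (chr3:40708621-40708870, plus strand). Stag3 encodes a cohesin subunit of meiosis (chr5:138280259-138280508, plus strand), and Hormad2 a protein of the meiotic chromosome axis (chr11:4441083-4441332, minus strand). Clec11a, which encodes a secreted growth factor of bone marrow and is not a germline gene, is shown for contrast (chr7:44306960-44307209, minus strand).
Tex12: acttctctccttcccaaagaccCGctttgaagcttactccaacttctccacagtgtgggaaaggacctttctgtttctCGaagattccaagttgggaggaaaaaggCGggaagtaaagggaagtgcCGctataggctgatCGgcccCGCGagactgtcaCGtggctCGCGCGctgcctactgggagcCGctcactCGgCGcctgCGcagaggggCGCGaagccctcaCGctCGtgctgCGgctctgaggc
Slc25a31: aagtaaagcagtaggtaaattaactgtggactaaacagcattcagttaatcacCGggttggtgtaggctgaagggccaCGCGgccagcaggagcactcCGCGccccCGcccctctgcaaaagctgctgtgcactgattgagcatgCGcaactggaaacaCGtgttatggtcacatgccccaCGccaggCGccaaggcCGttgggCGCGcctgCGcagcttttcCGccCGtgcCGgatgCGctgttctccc
Stag3: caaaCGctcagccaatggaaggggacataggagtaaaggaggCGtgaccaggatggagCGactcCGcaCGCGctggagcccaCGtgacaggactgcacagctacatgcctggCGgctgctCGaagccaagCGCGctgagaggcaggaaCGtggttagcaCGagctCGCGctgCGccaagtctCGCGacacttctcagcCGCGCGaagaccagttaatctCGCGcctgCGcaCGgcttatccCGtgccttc
Hormad2: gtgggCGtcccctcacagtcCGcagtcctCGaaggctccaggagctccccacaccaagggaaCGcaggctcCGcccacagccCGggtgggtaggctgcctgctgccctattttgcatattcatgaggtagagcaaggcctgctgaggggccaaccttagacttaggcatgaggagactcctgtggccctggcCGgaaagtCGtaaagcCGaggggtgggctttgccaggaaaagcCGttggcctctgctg
Clec11a: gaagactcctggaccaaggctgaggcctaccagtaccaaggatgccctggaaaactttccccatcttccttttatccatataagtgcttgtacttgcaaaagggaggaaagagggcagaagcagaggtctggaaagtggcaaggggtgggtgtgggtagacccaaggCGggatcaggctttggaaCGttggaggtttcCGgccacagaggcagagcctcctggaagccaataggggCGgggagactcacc
The windows held 20 CG dinucleotides at Tex12, 18 at Slc25a31, 26 at Stag3, 10 at Hormad2 and 4 at Clec11a. The median over the 16918 measured genes with a promoter in the table was 10. The motif CACGTG, an E-box that reads the same on both strands, stood 93 bases before the start of Tex12 and also 93 bases before that of Slc25a31, and 170 bases before that of Stag3. It was absent from the other windows printed.

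Over all genes called higher, CG counts and the E-box were near their values over all promoters. The 117 of these genes with a promoter in the table held a median of 10 CG, as all genes did, and 8 of them (6.84%) held CACGTG, against 6.87% of all promoters. The 40 genes called lower that had a promoter held a median of 13 CG, and 6 (15%) held the motif. In the list of germline and meiosis genes used below, 3 of the 7 called genes and 12 of the 43 others with a promoter (27.9%) held it. TCCCGC or its reverse complement GCGGGA, a core of E2F sites, was found on either strand in 28.2% of promoters of genes called higher, 32.5% of those called lower and 21.8% of all promoters. These are matches of letters in a window, and the first listed start coincided with the 5′ end of the gene for 72.5% of genes.

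Among 58 measured germline and meiosis genes, 7 rose and 0 fell (12.1% called, against 0.848% of all genes). They are the 4 genes shown above that act in meiosis or germ cells together with Rpl39l, Syce1 and Xlr3a. The other 51 were not called, and the median difference of the list was 0.03, against 0.00 over all genes. This list and those below were chosen with earlier results of these data known, so their shares of calls only describe them. Tex12 lay at 6.55, 5.87, 5.42 and 6.37 on Dnmt1c/chip MDP arrays, against 3.11, 4.47, 3.55 and 2.86 on Dnmt1+/+ MDP arrays. On cMoP arrays it read 6.88, 5.49, 7.47 and 7.56 with Dnmt1c/chip, against 3.97, 3.83, 3.13 and 3.61 with Dnmt1+/+. Every Dnmt1c/chip array was above every Dnmt1+/+ array, and the Dnmt1+/+ levels were close to the array medians. The mean difference of Tex12 was 2.88 (SE 0.29, limma adjusted p = 5.62e-05), a lower limit because the Dnmt1+/+ MDP mean of 3.496 was below 3.53. Slc25a31 lay at 6.28, 6.89, 6.73 and 5.74 in Dnmt1c/chip MDPs, against 2.93, 3.15, 3.32 and 3.90 in Dnmt1+/+ MDPs. Its cMoP levels were 5.53, 4.85, 5.39 and 7.72 with Dnmt1c/chip, against 3.44, 2.83, 3.29 and 3.41 with Dnmt1+/+. The genotypes were apart in both progenitors, with 1 Dnmt1c/chip cMoP array well above the other 3, and the mean difference was 2.86 (SE 0.32, adjusted p = 1.24e-04). This too is a lower limit, with Dnmt1+/+ means below 3.53 in both progenitors, so the sizes of the rises of Tex12 and Slc25a31 cannot be ranked.

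Stag3 and Rpl39l had larger differences in cMoPs than in MDPs, a contrast that did not pass adjustment for either. Stag3 lay at 7.26, 6.74, 7.09 and 7.51 in Dnmt1c/chip MDPs, against 5.29, 6.15, 6.08 and 6.27 in Dnmt1+/+ MDPs. The cMoP levels of Stag3 were 7.63, 8.65, 8.32 and 7.79 with Dnmt1c/chip, against 5.57, 5.74, 6.15 and 6.23 with Dnmt1+/+. The mean difference was 1.69 (SE 0.18, adjusted p = 8.51e-05), made up of 2.18 in cMoPs and 1.20 in MDPs, which differed at an unadjusted p of 0.016. Rpl39l, whose protein replaces a common ribosomal protein in male germ cells, lay at 5.65 to 6.67 in Dnmt1c/chip MDPs and 4.20 to 4.88 in Dnmt1+/+ MDPs, and at 6.81 to 7.32 in Dnmt1c/chip cMoPs and 3.70 to 5.24 in Dnmt1+/+ cMoPs. No arrays overlapped, and the mean difference was 2.13 (SE 0.20, adjusted p = 4.3e-05). Hormad2 lay at 5.87, 5.601, 5.91 and 4.27 in Dnmt1c/chip MDPs and 3.47, 4.004, 4.08 and 3.74 in Dnmt1+/+ MDPs. Its cMoP arrays read 5.95, 6.71, 6.32 and 6.56 with Dnmt1c/chip and 4.40, 5.10, 3.59 and 3.73 with Dnmt1+/+. Dnmt1c/chip MDP replicate 4 came within 0.2 of the highest Dnmt1+/+ MDP array, and the mean difference was 1.88 (SE 0.25, adjusted p = 5.84e-04).

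Syce1, which like Tex12 encodes a central element protein of the synaptonemal complex, varied widely between arrays. It lay at 7.15, 5.21, 4.76 and 5.16 in Dnmt1c/chip MDPs, against 3.61, 3.67, 3.72 and 3.86 in Dnmt1+/+ MDPs, and at 7.06, 5.76, 5.21 and 4.75 in Dnmt1c/chip cMoPs, against 3.82, 4.36, 4.13 and 3.75 in Dnmt1+/+ cMoPs. Replicate 1 was the highest of the Dnmt1c/chip arrays in both progenitors. The mean difference was 1.77 (SE 0.32, adjusted p = 0.0117), and the call was lost with Xist and Y-linked levels as covariates (1.66, adjusted p = 0.171). Xlr3a, one of a family of near-identical genes on the X chromosome between which probes may not distinguish, was higher by 1.15 (SE 0.23, adjusted p = 0.0198). It lay at 6.23 to 7.58 in Dnmt1c/chip MDPs against 5.36 to 6.01 in Dnmt1+/+ MDPs, without overlap, and at 5.69 to 7.21 in Dnmt1c/chip cMoPs against 4.96 to 5.79 in Dnmt1+/+ cMoPs, where 1 array of each genotype overlapped. A further germ cell gene outside the list, Tex14, needed for the bridges between developing germ cells, was picked out after its values were seen. It lay at 3.79 to 4.23 in Dnmt1c/chip MDPs against 3.03 to 3.33 in Dnmt1+/+ MDPs, and at 4.10 to 5.57 in Dnmt1c/chip cMoPs against 3.21 to 3.46 in Dnmt1+/+ cMoPs (mean difference 1.14, SE 0.18, adjusted p = 0.00405). Adam2, which encodes a sperm surface protein and is also outside the list, went the other way (mean difference −1.30, SE 0.15, limma adjusted p = 2.55e-04). Its cMoP means lay below the array medians in both genotypes. The gene listed as Six6os1, measured under the symbol 4930447C04Rik, did not pass, with a difference of 0.85 (SE 0.22, adjusted p = 0.0824).

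**Figure D2:**
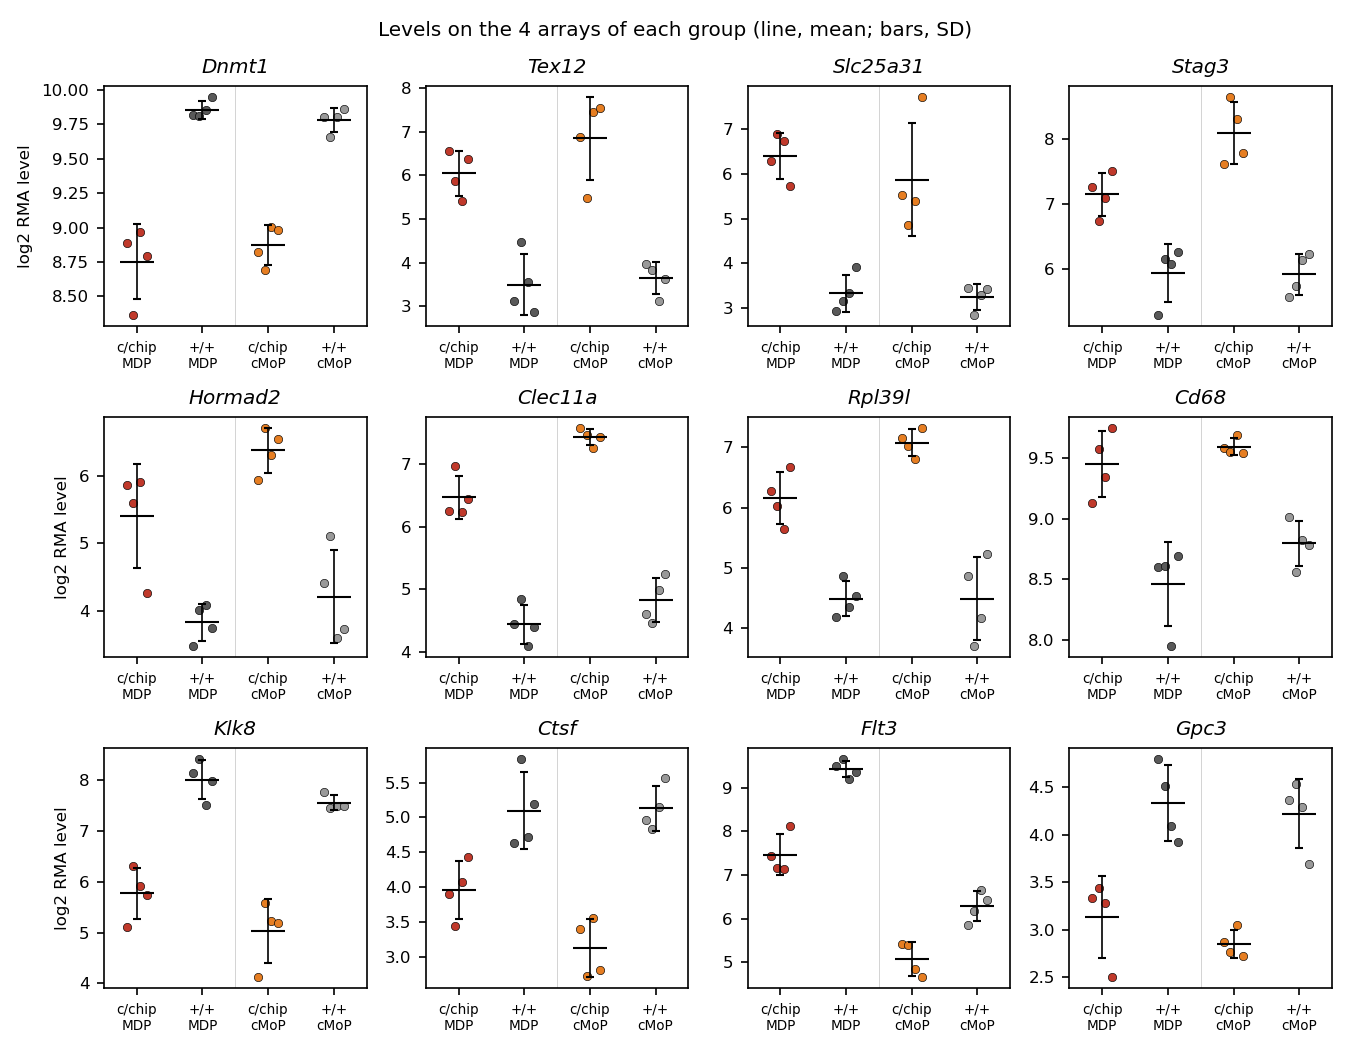
Log2 RMA level of 12 genes on each array (points), with the mean (line) and SD (bars) of the 4 arrays of a group; groups from left to right are Dnmt1c/chip MDPs, Dnmt1+/+ MDPs, Dnmt1c/chip cMoPs and Dnmt1+/+ cMoPs. In all 12 panels the Dnmt1c/chip points lie apart from the Dnmt1+/+ points of the same progenitor, above them in Tex12, Slc25a31, Stag3, Hormad2, Clec11a, Rpl39l and Cd68 and below them in Dnmt1, Klk8, Ctsf, Flt3 and Gpc3.

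Several genes with roles outside the germline also rose in both progenitors. Clec11a gave the lowest p-value of all genes. It lay at 6.25, 6.96, 6.23 and 6.44 in Dnmt1c/chip MDPs, against 4.45, 4.84, 4.09 and 4.39 in Dnmt1+/+ MDPs. In cMoPs its levels were 7.57, 7.46, 7.25 and 7.43 with Dnmt1c/chip, against 4.60, 4.47, 4.99 and 5.25 with Dnmt1+/+. The genotypes were more than 1 log2 unit apart in each progenitor, and the mean difference was 2.32 (SE 0.14, 4.98-fold, adjusted p = 2.89e-07). Car3, a carbonic anhydrase best known from muscle and fat, lay at 9.13 to 9.59 in Dnmt1c/chip MDPs and 6.68 to 8.07 in Dnmt1+/+ MDPs, and at 8.53 to 8.89 in Dnmt1c/chip cMoPs and 7.25 to 7.57 in Dnmt1+/+ cMoPs. Its mean difference was 1.55 (SE 0.16, adjusted p = 6.75e-05) on the brighter of 2 probe sets and 0.62 on the other, where it was 0.73 in MDPs and 0.52 in cMoPs. Tnnt1, the troponin T of slow skeletal muscle, lay at 5.83 to 6.20 in Dnmt1c/chip MDPs and 4.09 to 4.78 in Dnmt1+/+ MDPs, and at 5.62 to 6.29 in Dnmt1c/chip cMoPs and 4.27 to 5.21 in Dnmt1+/+ cMoPs (mean difference 1.46, SE 0.15, adjusted p = 5.62e-05). Dab2, an adaptor of clathrin-mediated endocytosis, was higher by 1.19 (SE 0.19, adjusted p = 0.00356), by 1.30 in MDPs and 1.07 in cMoPs. None of these 4 genes had overlapping arrays in either progenitor.

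Selp, the adhesion molecule P-selectin of platelets and endothelium, lay at 6.47, 5.70, 7.23 and 7.63 in Dnmt1c/chip MDPs, against 4.73, 4.68, 3.31 and 3.72 in Dnmt1+/+ MDPs. The cMoP arrays read 6.12, 5.04, 4.96 and 4.94 with Dnmt1c/chip, against 4.49, 4.61, 3.95 and 3.30 with Dnmt1+/+. Its mean difference of 1.91 (SE 0.30, adjusted p = 0.00362) was 1.38 without the 3 Dnmt1c/chip MDP arrays that carried both Xist and Y-linked signal. Bmx, a kinase of the Tec family encoded on the X chromosome, was higher by 1.84 in MDPs and 0.69 in cMoPs (mean 1.26, SE 0.12, adjusted p = 4.24e-05). Dio2, the deiodinase that activates thyroid hormone, was higher by 2.01 in MDPs and 0.58 in cMoPs (adjusted p = 0.0132), and Mgam, the intestinal maltase-glucoamylase, by 1.88 and 0.92 (adjusted p = 0.0205). Both lost the call with Xist and Y-linked levels as covariates (adjusted p = 0.209 for Dio2 and 0.335 for Mgam), and the Mgam difference then was 0.75. The second probe set of Dio2 gave a mean difference of 0.84.

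Of 37 stem and early progenitor genes, 3 rose and 0 fell (8.11% called, against 0.848% of all genes), and the list median was 0.15. The 3 were Clec11a, Gata2 and Hoxa7. Hoxa7, a homeobox gene of blood progenitors, was higher to a like degree in MDPs (0.70) and cMoPs (0.75), with a mean difference of 0.73 (SE 0.14, adjusted p = 0.0131). Its call was lost with Xist and Y-linked levels as covariates (0.69, limma adjusted p = 0.181). Without the 3 Dnmt1c/chip MDP arrays its difference was 0.68. Gata2, a transcription factor of stem cells, mast cells and megakaryocytes, lay at 8.99, 8.40, 8.27 and 7.73 in Dnmt1c/chip MDPs, against 5.58, 6.24, 4.91 and 6.89 in Dnmt1+/+ MDPs. In cMoPs it lay at 4.26, 3.90, 4.52 and 5.40 with Dnmt1c/chip, against 4.19, 3.75, 4.37 and 4.37 with Dnmt1+/+, where the genotypes overlapped. Its mean difference of 1.40 (adjusted p = 0.0158) thus came mainly from MDPs (2.44, against 0.35 in cMoPs). The Gata2 call was lost with Xist and Y-linked levels as covariates (1.36, adjusted p = 0.187). Without the 3 Dnmt1c/chip MDP arrays the Gata2 difference was 1.42.

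The list of MHC class I genes, which present peptides to T cells, and of genes that load those peptides had 2 called higher and 0 lower among 21 measured (9.52%, against 0.848% of all genes). The class I genes include many imperfectly separated copies. The differences of 19 of the 21 were positive, and the median was 0.17. H2-K1, a classical class I gene, lay at 9.80, 9.70, 9.71 and 9.92 in Dnmt1c/chip MDPs, against 9.35, 9.37, 9.13 and 9.40 in Dnmt1+/+ MDPs. Among cMoPs the levels were 9.63, 9.70, 9.64 and 9.71 with Dnmt1c/chip, against 9.04, 9.22, 9.19 and 9.26 with Dnmt1+/+. The shift was small and even, 0.47 in MDPs and 0.49 in cMoPs (mean 0.48, SE 0.079, adjusted p = 0.00492). The call was lost with Xist and Y-linked levels as covariates (0.45, limma adjusted p = 0.135). Without the 3 Dnmt1c/chip MDP arrays the difference was 0.44. H2-Q5, a non-classical class I gene, was higher by 1.55 (SE 0.20, adjusted p = 4.13e-04) on its brighter probe set, while its second probe set gave 0.25. The second probe set read −0.145 in MDPs and 0.65 in cMoPs, so it does not have the same direction in both progenitors. Interferon response genes had a median of 0.06 and 1 of 37 called (2.70%), Xaf1, an interferon-inducible gene linked to cell death (0.58, SE 0.13, adjusted p = 0.0334). Xaf1 lost its call in 11 of the 16 fits that left out an array each. Of 9 Schlafen genes, which are induced by interferon in many cells, Slfn4 was called (11.1%). It lay at 3.85 to 4.62 in Dnmt1c/chip MDPs against 2.87 to 3.82 in Dnmt1+/+ MDPs, and at 4.89 to 5.88 in Dnmt1c/chip cMoPs against 3.17 to 3.85 in Dnmt1+/+ cMoPs (mean difference 1.29, SE 0.18, adjusted p = 8.99e-04).

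The list of neutrophil granule genes, which also holds surface proteins and transcription factors of the neutrophil lineage, gave the most calls of any list, with 10 higher and 0 lower among 39 measured (25.6%, against 0.848% of all genes). The 10 were the serine protease genes Elane and Prss57, the haptoglobin gene Hp, the glutathione transferase gene Gstm1, the transcription factor genes Cebpe and Gfi1, and Nkg7, Ms4a3, Trem3 and Cd177, which encode membrane proteins. Calls were mixed among major granule enzymes made early in the lineage, which include Elane. Not called were Mpo, myeloperoxidase (mean difference 0.09, SE 0.08), and Ctsg, cathepsin G (0.18, SE 0.09). Nor were Prtn3, proteinase 3 (0.29, SE 0.08), and Lyz2, lysozyme (0.37, SE 0.11). The median difference of the list was 0.70, and it was 1.18 in MDPs and 0.11 in cMoPs. Nkg7, a granule membrane protein, lay at 10.41, 10.18, 10.04 and 10.32 in Dnmt1c/chip MDPs, against 8.41, 8.66, 7.94 and 7.96 in Dnmt1+/+ MDPs. The cMoP levels of Nkg7 were 10.82, 10.86, 10.91 and 10.70 with Dnmt1c/chip, against 10.63, 10.39, 10.65 and 10.62 with Dnmt1+/+. The cMoP arrays did not overlap but were close, and the genotype differences in cMoPs and in MDPs differed by −1.75 (SE 0.22, interaction adjusted p = 0.00416). Elane, the neutrophil elastase, averaged 11.40 ± 0.10 in Dnmt1c/chip MDPs and 9.72 ± 0.32 in Dnmt1+/+ MDPs, and 12.18 ± 0.09 in Dnmt1c/chip cMoPs and 12.08 ± 0.02 in Dnmt1+/+ cMoPs (SD, n = 4 each). Its cMoP difference of 0.10 and MDP difference of 1.68 also differed (interaction −1.58, SE 0.20, adjusted p = 0.00416). Array maxima lay between 12.93 and 13.33, so the Elane levels in cMoPs stood near the top of the scale. Whether this narrowed the cMoP difference was not tested. Ms4a3, a membrane protein that marks granulocyte-monocyte progenitors, was 0.10 higher in cMoPs and 2.06 higher in MDPs (interaction −1.97, SE 0.27, adjusted p = 0.00667).

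Cd177, a surface protein of neutrophils, had like differences in both progenitors, 1.41 in MDPs and 1.34 in cMoPs (mean 1.37, SE 0.28, adjusted p = 0.0235). It lay at 4.18 to 5.97 in Dnmt1c/chip MDPs against 2.86 to 4.27 in Dnmt1+/+ MDPs, and at 4.78 to 6.42 in Dnmt1c/chip cMoPs against 3.97 to 4.65 in Dnmt1+/+ cMoPs. The MDP arrays overlapped, and Cd177 lost its call in 5 of the 16 fits that left out an array. The call was also lost with Xist and Y-linked levels as covariates (0.83, adjusted p = 0.377). Without the 3 Dnmt1c/chip MDP arrays the Cd177 difference was 1.02. Trem3, a receptor of myeloid cells, was higher by 2.23 in MDPs and 0.56 in cMoPs (mean 1.39, SE 0.22, adjusted p = 0.00353). The granule genes of mature neutrophils named next, picked out after their values were seen, had large differences in MDPs and wide spread between arrays, and did not pass: the mean difference was 2.11 (SE 0.87, adjusted p = 0.371) for Camp, 2.11 (SE 0.70, adjusted p = 0.212) for Ngp and 1.46 (SE 0.45, adjusted p = 0.163) for Ltf. The mean level of the 39 genes was 6.55 to 7.88 across Dnmt1c/chip MDP arrays and 5.13 to 6.20 across Dnmt1+/+ MDP arrays, against 6.44 to 7.03 across Dnmt1c/chip cMoP arrays and 6.42 to 6.74 across Dnmt1+/+ cMoP arrays. The sort excluded cells with lineage markers or CD11b.

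**Figure D3:**
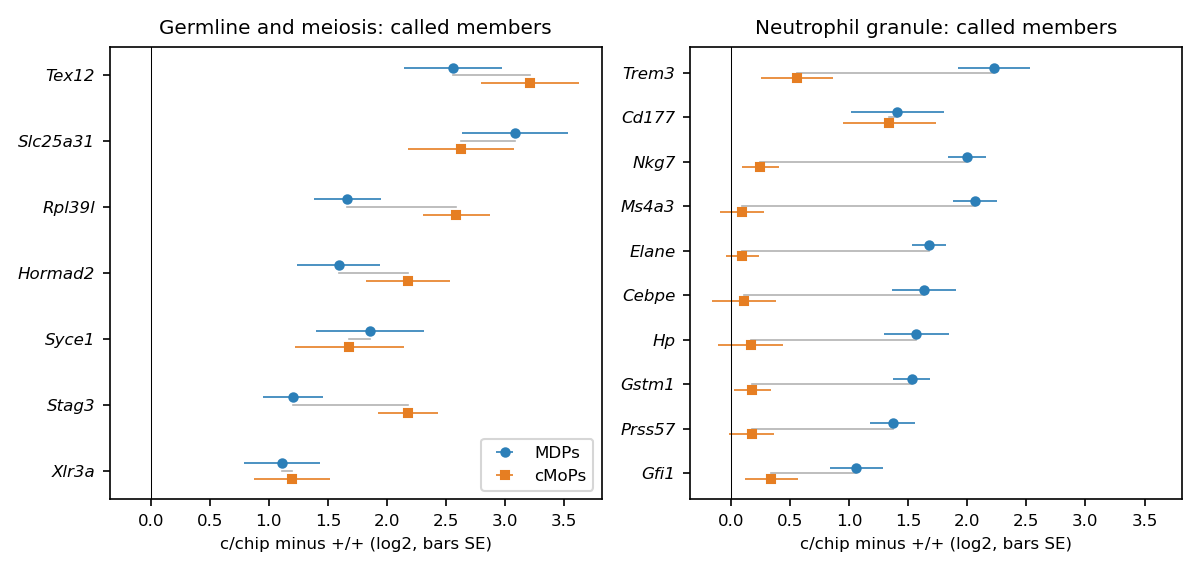
Genotype difference (Dnmt1c/chip minus Dnmt1+/+, log2; bars, SE) in MDPs (circles) and in cMoPs (squares) of the called genes of the germline and meiosis list (left) and the neutrophil granule list (right). The 7 germline genes are raised by over 1 in both progenitors, while 9 of the 10 granule genes lie above 1 in MDPs and below 0.6 in cMoPs.

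Few markers of other lineages were called, 4% of megakaryocyte, 4.76% of erythroid and 4.35% of mast cell genes, against 0.848% of all genes. Their mean level on MDP arrays overlapped between the genotypes for megakaryocyte and erythroid genes and did not for mast cell genes. Megakaryocyte and platelet genes averaged 4.95 to 5.57 across Dnmt1c/chip MDP arrays and 4.57 to 4.98 across Dnmt1+/+ MDP arrays, and 4.34 to 4.49 across Dnmt1c/chip cMoP arrays and 4.20 to 4.36 across Dnmt1+/+ cMoP arrays. Of the 25, 1 was called (Selp), and 18 differences were positive. Erythroid genes averaged 4.91 to 6.55 in Dnmt1c/chip MDPs and 4.65 to 5.21 in Dnmt1+/+ MDPs, and 3.75 to 3.90 in Dnmt1c/chip cMoPs and 3.78 to 3.88 in Dnmt1+/+ cMoPs, with 1 of 21 called and a list median of 0.47. That gene, Blvrb, the biliverdin reductase of red cells, was higher by 0.90 (adjusted p = 0.0467) and lost its call in 14 of 16 fits without an array. Mast cell and basophil genes averaged 4.50 to 5.14 in Dnmt1c/chip MDPs and 4.05 to 4.33 in Dnmt1+/+ MDPs, and 3.94 to 4.08 in Dnmt1c/chip cMoPs and 3.93 to 4.11 in Dnmt1+/+ cMoPs, with Gata2 called among 23. The platelet glycoprotein gene Gp5 and the mast cell genes Cpa3 and Hdc passed on the mean difference but had opposite signs in the 2 progenitors and so were not members: Gp5 was 2.48 in MDPs and −0.16 in cMoPs, Cpa3 2.74 and −0.01, and Hdc 2.05 and −0.34. The part of these lineages in the MDP differences was not tested.

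Monocyte genes had 3 called higher and 1 lower among 40 measured (10%, against 0.848% of all genes), with a list median of −0.02. Cd68, a lysosomal glycoprotein of macrophages, lay at 9.13, 9.58, 9.34 and 9.75 in Dnmt1c/chip MDPs, against 8.60, 8.61, 7.95 and 8.69 in Dnmt1+/+ MDPs. In cMoPs it lay at 9.58, 9.55, 9.69 and 9.54 with Dnmt1c/chip, against 9.01, 8.56, 8.83 and 8.79 with Dnmt1+/+. The genotypes were apart in both, with differences of 0.99 in MDPs and 0.80 in cMoPs (mean 0.89, SE 0.12, adjusted p = 9.18e-04). Fcgr3, an Fc receptor for immunoglobulin G, was higher by 1.18 (SE 0.22, adjusted p = 0.0117), by 1.65 in MDPs and 0.71 in cMoPs. Its call was lost with Xist and Y-linked levels as covariates (1.29, adjusted p = 0.106). Without the 3 Dnmt1c/chip MDP arrays the Fcgr3 difference was 1.27. Ly6c2, which encodes Ly-6C, the marker that separated the gates, was higher by 0.57 (SE 0.096, adjusted p = 0.00582), by 1.06 in MDPs and 0.08 in cMoPs. It averaged 11.27 ± 0.17 in Dnmt1c/chip MDPs and 10.20 ± 0.26 in Dnmt1+/+ MDPs, and 12.12 ± 0.07 in Dnmt1c/chip cMoPs and 12.04 ± 0.05 in Dnmt1+/+ cMoPs (SD, n = 4 each). The cMoP levels, like those of Elane, stood near the top of the scale. The other transcripts of sort markers were not called, with mean differences of 0.15 (SE 0.11) for Kit, −0.18 (SE 0.11) for Csf1r, which encodes CD115, 0.36 (SE 0.18) for Itgam, which encodes CD11b, and 0.21 (SE 0.20) for Ly6c1, a second Ly-6C gene. Csf1r differed by −0.47 in MDPs (unadjusted p = 0.0087) and by 0.10 in cMoPs, and Ly6c1 by 0.61 in MDPs (unadjusted p = 0.0437) and by −0.19 in cMoPs; neither MDP difference passed limma's test after adjustment (adjusted p = 0.152 for Csf1r and 0.329 for Ly6c1). Ahnak, a large scaffold protein, was the monocyte gene called lower (−0.997, SE 0.15, adjusted p = 0.00269).

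Of 28 receptors for growth factors and cytokines, 2 were called higher and 1 lower (10.7%, against 0.848% of all genes), with a median of −0.02. Csf2ra, the specific chain of the receptor for granulocyte-macrophage colony-stimulating factor, was higher by 0.60 (SE 0.13, adjusted p = 0.0325), by 1.02 in MDPs and 0.19 in cMoPs. Ifngr1, the ligand-binding chain of the interferon gamma receptor, was higher by 0.54 (SE 0.11, adjusted p = 0.0221). The call of Csf2ra was lost in 8 of 16 fits without an array and that of Ifngr1 in 2. Flt3, the receptor whose ligand drives dendritic cell development, fell in both progenitors.

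Flt3 lay at 7.44, 7.17, 7.13 and 8.13 in Dnmt1c/chip MDPs, against 9.49, 9.66, 9.21 and 9.36 in Dnmt1+/+ MDPs. In cMoPs, where it is lower in both genotypes, it lay at 5.42, 5.40, 4.85 and 4.66 with Dnmt1c/chip, against 5.86, 6.18, 6.66 and 6.44 with Dnmt1+/+. No arrays overlapped, and the mean difference was −1.58 (SE 0.17, 2.996-fold lower, adjusted p = 7.73e-05). It was 1 of 3 dendritic cell genes called lower among 35 (8.57%, against 0.848% of all genes). In that list 0 were called higher, the median was −0.10, and 9 of the 35 differences were positive. Siglech, a surface receptor of plasmacytoid dendritic cells, lay at 3.79, 3.31, 3.19 and 3.16 in Dnmt1c/chip MDPs, against 6.28, 7.62, 5.83 and 4.74 in Dnmt1+/+ MDPs. Its levels in cMoPs were 3.09 to 3.56 with Dnmt1c/chip and 3.53 to 4.13 with Dnmt1+/+, close to the array medians in both, so that the mean difference of −1.58 (SE 0.28, adjusted p = 0.00813) came mainly from MDPs (−2.75, against −0.42 in cMoPs). Dpp4, a surface peptidase (CD26) of conventional dendritic cells of type 1, fell by 0.93 in MDPs and by 0.52 in cMoPs (mean −0.72, SE 0.14, adjusted p = 0.0182). Irf8, the transcription factor that marks progenitors of dendritic cells and monocytes, differed by −0.30 (SE 0.090, adjusted p = 0.153).

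Klk8 and Dntt had the 2 largest mean falls of the called genes, −2.38 and −2.37. Dntt, described below, lay below the array medians in cMoPs of both genotypes, where no fall can be measured, so their order is not settled. Klk8 encodes a secreted serine protease best known from brain and skin. The levels of Klk8 were 5.12, 6.32, 5.91 and 5.75 in Dnmt1c/chip MDPs, against 8.15, 8.42, 7.51 and 7.99 in Dnmt1+/+ MDPs. In cMoPs they were 4.12, 5.58, 5.24 and 5.18 with Dnmt1c/chip, against 7.78, 7.46, 7.497 and 7.49 with Dnmt1+/+. The genotypes were more than 1 log2 unit apart in each progenitor, and the mean difference was −2.38 (SE 0.20, 5.22-fold lower, adjusted p = 1.93e-05), with −2.24 in MDPs and −2.53 in cMoPs. Ctsf, the lysosomal protease cathepsin F, lay at 3.44 to 4.44 in Dnmt1c/chip MDPs and 4.64 to 5.84 in Dnmt1+/+ MDPs, and at 2.72 to 3.56 in Dnmt1c/chip cMoPs and 4.83 to 5.57 in Dnmt1+/+ cMoPs (mean difference −1.57, SE 0.20, adjusted p = 3.64e-04). Since the Dnmt1c/chip cMoP mean was below the array medians, the fall in cMoPs is a lower limit.

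Gpc3, a cell surface heparan sulfate proteoglycan encoded on the X chromosome, fell by 1.19 in MDPs and by 1.37 in cMoPs (mean −1.28, SE 0.16, adjusted p = 4.38e-04). Its Dnmt1c/chip arrays lay at 2.50 to 3.45 in MDPs and 2.72 to 3.05 in cMoPs, near or below the array medians, against 3.93 to 4.80 in Dnmt1+/+ MDPs and 3.70 to 4.53 in Dnmt1+/+ cMoPs. Clip4, of the family of microtubule-binding CAP-Gly linker proteins, fell by 1.65 in MDPs and by 0.63 in cMoPs (mean −1.14, SE 0.12, adjusted p = 7.73e-05). Its Dnmt1c/chip means were 3.32 in MDPs and 3.07 in cMoPs, below the array medians, so both falls are lower limits, as are those of Gpc3. Tcf19, a nuclear protein with a forkhead-associated domain, was lower by a like amount in both, −0.95 in MDPs and −1.07 in cMoPs (mean −1.01, SE 0.16, adjusted p = 0.00405). Epb41l4b, a membrane-linked FERM domain protein, and Adgra3, an adhesion receptor, had mean differences of −0.90 (adjusted p = 0.00399) and −0.69 (adjusted p = 0.00612). Pop5, a subunit of the RNA-processing enzymes RNase P and RNase MRP, had a mean difference of −0.49 (adjusted p = 0.0367) and lost its call in 13 of 16 fits without an array. All 6 genes of this paragraph had arrays of the genotypes apart in both progenitors.

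Dntt shows how the rule on direction can be met by a gene that hardly differs in 1 progenitor. It encodes terminal deoxynucleotidyl transferase, an early lymphoid enzyme, and it was the gene called among 36 lymphoid genes (2.78%, against 0.848% of all genes; list median −0.03). Its MDP levels were 5.63, 4.01, 3.15 and 4.22 with Dnmt1c/chip, against 9.02, 9.97, 8.26 and 8.498 with Dnmt1+/+. In cMoPs it lay at 2.56 to 3.04 with Dnmt1c/chip and 2.54 to 3.15 with Dnmt1+/+, below the array medians, where the arrays overlapped. The differences were −0.07 in cMoPs and −4.68 in MDPs (interaction 4.61, SE 0.58, adjusted p = 0.00416). Il7r, the receptor for interleukin 7, showed −3.17 in MDPs and 0.16 in cMoPs and so was not a member.

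Related genes on the X chromosome fell as well. Bex1, Bex2 and Bex4 encode small proteins of 1 family, named here after their values were seen. Bex1 lay at 6.35, 5.40, 3.55 and 6.04 in Dnmt1c/chip MDPs, against 7.34, 7.19, 6.34 and 7.11 in Dnmt1+/+ MDPs, and at 4.57 to 5.27 in Dnmt1c/chip cMoPs, against 5.99 to 6.98 in Dnmt1+/+ cMoPs. The cMoP arrays were apart, while in MDPs the highest Dnmt1c/chip array reached the lowest Dnmt1+/+ array. Its mean difference was −1.67 (SE 0.31, adjusted p = 0.0135). Bex2 was lower by a mean of −1.30 (SE 0.28, adjusted p = 0.0363) and Bex4 of −1.31 (SE 0.30, adjusted p = 0.0467), with −0.49 in MDPs and −2.12 in cMoPs for Bex4. The second probe set of Bex4 gave a mean difference of −0.49, with 0.24 in MDPs and −1.22 in cMoPs, so it does not have the same direction in both progenitors. All 3 lost the call with Xist and Y-linked levels as covariates (adjusted p = 0.187 for Bex1, 0.108 for Bex2 and 0.147 for Bex4). In all, 6 of the 46 genes called lower and 5 of the 142 called higher lie on the X chromosome, which holds 4.05% of the genes measured.

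**Figure D4:**
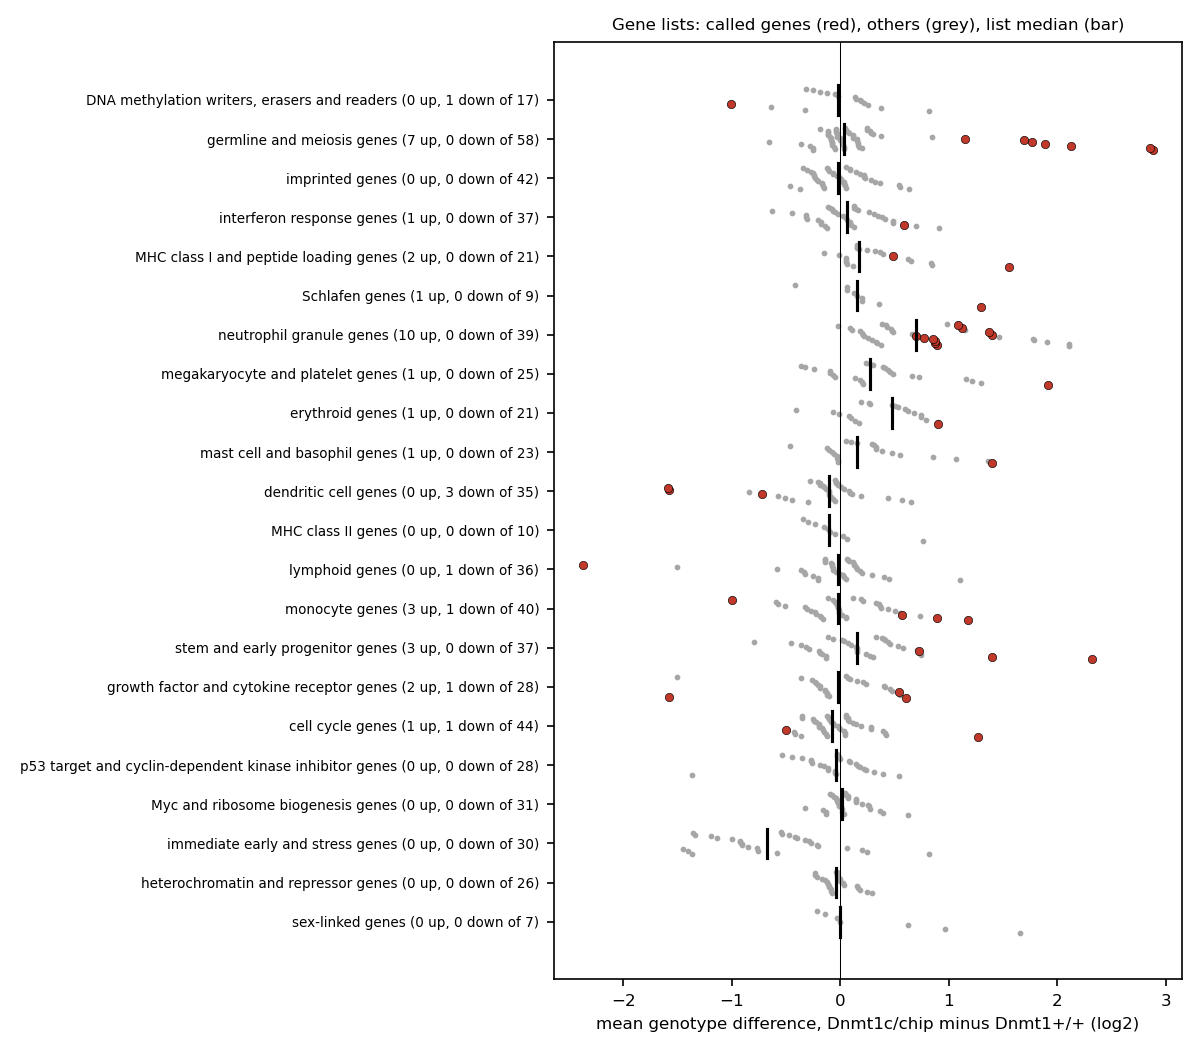
Mean genotype difference (Dnmt1c/chip minus Dnmt1+/+, log2; x axis) of each measured gene of 22 lists, with called genes in red, other genes in grey and the median of each list as a bar; the count of called genes stands beside each list name. Called genes of the germline and granule lists all lie to the right of 0 and those of the dendritic cell list to the left, and the median of the immediate early list lies at −0.67 with no called gene.

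Many lists had few or no calls by limma. Over all genes 0.848% were called, so lists of this size would hold few calls and an absence of calls says little. An unadjusted p under 0.05 was reached by 10.7% of all genes. None of 42 imprinted genes was called (median −0.02, 9 at an unadjusted p under 0.05), nor any of 10 MHC class II genes (median −0.10, 1), 28 p53 target and kinase inhibitor genes (median −0.04, 5), 31 Myc and ribosome biogenesis genes (median 0.02, 6), 26 heterochromatin and repressor genes (median −0.04, 4) or 7 sex-linked genes (median −0.01, 0). The share at an unadjusted p under 0.05 was above that of all genes for the imprinted, p53, Myc and heterochromatin lists. Sex-linked genes differed between arrays within a group, which widens their spread. Their 0 calls therefore say little, and the largest mean difference in that list was 1.66. Cell cycle genes had 1 of 44 called higher and 1 lower (4.55% called, against 0.848% of all genes), with a median of −0.08. Ccnd1, cyclin D1, was higher by 1.27 (SE 0.22, adjusted p = 0.00827), by 1.501 in MDPs and 1.04 in cMoPs. It lost the call with Xist and Y-linked levels as covariates (1.13, limma adjusted p = 0.168). Without the 3 Dnmt1c/chip MDP arrays its difference was 1.18. Kif23, a mitotic kinesin, had a mean difference of −0.50 (adjusted p = 0.0408), made up of −0.95 in MDPs and −0.06 in cMoPs, and lost the call in 13 of 16 fits without an array.

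Size varied widely among the 188 genes. A difference of at least 2-fold was reached by 51 of the 142 higher and 20 of the 46 lower genes. Just inside the threshold were Pde2a (0.62, adjusted p = 0.0498), Acy3 (0.93, 0.0471) and Nkain1 (−0.47, 0.0471), and just outside it Tbrg3 (−0.76, adjusted p = 0.0521, with opposite signs in the progenitors), Gm11837 (−0.72, 0.0527) and Krt10 (−0.53, 0.0546). The Dnmt1+/+ mean over both progenitors lay below 3.53 for 14 higher genes. A further 8 genes passed on the mean difference with opposite signs. Direction alone said little, since 11511 of the 22180 genes (51.9%) had the same sign in both progenitors.

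For most called genes the genotype difference was larger in MDPs. That held for 112 of the 142 higher genes and 32 of the 46 lower genes, and the median difference of the higher genes was 1.08 in MDPs and 0.51 in cMoPs. Of the lower genes it was −0.95 in MDPs and −0.55 in cMoPs. These medians come from values that the rule used. The share of all genes with the larger difference in MDPs was not counted, so the counts only describe the set. An unadjusted p under 0.05 in each progenitor held for 91 higher and 25 lower genes, in MDPs alone for 50 and 15, and in cMoPs alone for 1 and 6; among all genes, 0.965% met it in each progenitor with 1 sign. Over all genes, 1.95% were called in MDPs and 0.113% in cMoPs. Arrays of the genotypes did not overlap in either progenitor for 61 higher and 14 lower genes, against 0.334% and 0.0947% of all genes; these counts use the contrast of the rule and describe it. The rule on direction limits the interaction, since both use the 2 genotype differences, so its count also only describes the set. It was called for 8 of the 188 genes, against 0.0586% of all genes. These were Nkg7, Ms4a3, Elane, Gstm1, Gsr, Gm1604b, Cd300c and Dntt, and each had the larger difference in MDPs.

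Some called genes lay close to each other on a chromosome. By gene order in RefSeq, 22 of the 188 (11.7%) had another called gene within 2 places, against 3.18% of the other genes. Of the 11 pairs, 9 had both genes changed in the same direction. The others were Tns1 with Cxcr2 (−1.17 and 1.085) and, on chromosome 7, Clec11a with 1700008O03Rik (2.32 and −0.53). Klk8 lies on chromosome 7 too, and its distance from Clec11a was not measured. Map11 lies next to Stag3 and was higher by 0.43, against 1.69 for Stag3. Il22ra2, a soluble receptor that binds interleukin 22, lies next to Ifngr1 and was higher by 1.16, against 0.54 for Ifngr1. Ephx2, a soluble epoxide hydrolase, and Adam2, a sperm surface protein, were both lower (−0.63 and −1.30). The pairs named were picked out after their values were seen.

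Genes near Dnmt1 were listed because a targeted allele can carry flanking sequence of another mouse strain. Among the 25 measured genes on each side of it on chromosome 9, 1 of 50 was called (2.0%, against 0.848% of all genes), and the median difference was 0.05. The called gene was AB124611, 22 places away, at 7.25 to 8.39 in Dnmt1c/chip MDPs and 4.76 to 5.58 in Dnmt1+/+ MDPs, and at 8.82 to 9.23 in Dnmt1c/chip cMoPs and 7.76 to 8.91 in Dnmt1+/+ cMoPs. Its cMoP arrays overlapped, and the mean difference was 1.62 (SE 0.21, adjusted p = 4.22e-04). An unadjusted p under 0.05 in limma's test was reached by 5 of the 50, near the 10.7% of all genes. All 5 lay among the 25 genes on the same side of Dnmt1, and all were higher in Dnmt1c/chip. They include the next gene, S1pr2, a receptor for sphingosine 1-phosphate, at 0.44 (SE 0.18). Tyk2, a kinase of cytokine receptors, was at 0.46 (SE 0.14). Neither passed adjustment (0.373 and 0.179). Of the 50 genes, 29 had a genotype mean above 3.53. The 16 that were olfactory receptors all lay on the other side of Dnmt1.

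**Figure D5:**
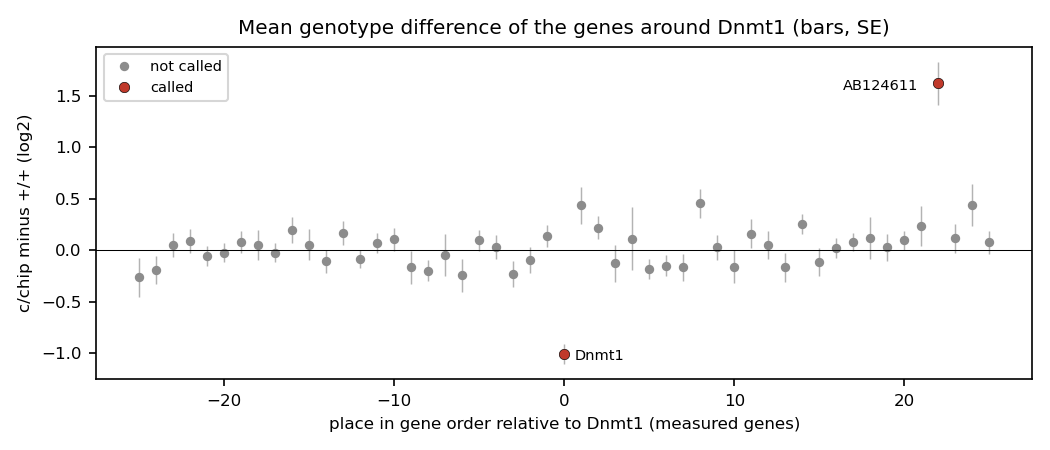
Mean genotype difference (Dnmt1c/chip minus Dnmt1+/+, log2; bars, SE) of Dnmt1 and of the 25 measured genes on each side of it, by place in gene order. Dnmt1 (−1.01) and AB124611 (1.62) are the called genes, and the others lie between −0.3 and 0.5.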

How the data were processed

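The deposited values are log2 expression levels, 1 per probe set and array, on 16 Affymetrix arrays of sorted MDPs and cMoPs. Per the submitters' processing notes, affy, RMA and limma were used; their versions, their settings and a genome build are not stated there. The design text names an older array than the annotation's identifiers do, so names rest on that annotation: 23521 of 41345 probe sets had 1 symbol, 1820 several and 16004 none, and 23328 matched RefSeq (GRCm38.p6) by Entrez identifier with 0 symbols changed. The probe set with the highest mean was kept for the 1082 genes with several. A second deposited table has 16 value columns that match no sample and was not used. Groups came from source names, because titles of Dnmt1+/+ cMoP arrays carry both genotype names.

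In R 4.3.3, limma 3.58.1 (lmFit, eBayes) fitted 4 group means to all 16 arrays, with no filter on low levels, and p-values were adjusted by Benjamini-Hochberg over 22180 genes at 0.05. On simulated data for the mean genotype difference over 22180 genes, 34% of 50 genes changed by 0.5 (log2) were called, 96% at 1 and 100% at 2 and at 3, and 4 of 169 calls were false. The simulation drew independent normal noise and changed each gene by the same amount in both progenitors. It held no signal shared between genes, such as sex or immediate early level. Its false calls are therefore not the error rate of the genes called here. The number of arrays limits the precision. Members, 22 gene lists and the naming rule were chosen with earlier results of these data known. The rule named Dnmt1, up to 15 genes each way with the largest differences among those without array overlap in both progenitors and with a level above 3.53, passing over unnamed transcripts, and up to 4 called genes per list.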

Additional observations from a re-analysis of the deposited data

Results flagged for a closer look

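In 8 of 184 checks of a named gene within a group of 4 arrays, 1 array stood apart from the other 3; about 1 check in 20 does so by chance. Selp was at 6.12 on Dnmt1c/chip cMoP replicate 1, where the lowest array was at 4.94. Fcgr3 was at 4.003 on Dnmt1c/chip MDP replicate 3, below 4.88 at the highest, and at 4.05 on Dnmt1+/+ MDP replicate 1, above 2.50 at the lowest, so both MDP groups had such an array. Klk8 was at 7.78 on Dnmt1+/+ cMoP replicate 1, Nkg7 at 10.39 on Dnmt1+/+ cMoP replicate 2, Cd68 at 7.95 on Dnmt1+/+ MDP replicate 3, Ly6c2 at 11.97 on Dnmt1+/+ cMoP replicate 4 and Csf2ra at 7.92 on Dnmt1+/+ cMoP replicate 2.

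For 8 common genes, the genotype difference was not of the same size in both progenitors by limma's interaction test (cMoP difference minus MDP difference). It was −1.75 for Nkg7, −1.97 for Ms4a3, −1.58 for Elane, −1.35 for Gstm1, −1.07 for Gsr, which encodes glutathione reductase (adjusted p = 0.0429), and −1.25 for Gm1604b, whose symbol carries no known role (adjusted p = 0.0286). For the genes that fell it was 4.61 for Dntt (adjusted p = 0.00416) and 1.82 for Cd300c, a myeloid surface receptor (adjusted p = 0.0188). In Gsr the difference was 0.39 in cMoPs and 1.46 in MDPs, and in Cd300c it was −0.27 in cMoPs and −2.09 in MDPs.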

How the results depend on the processing

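Dnmt1 was called under every alternative run. Against 142 genes higher and 46 lower, an additive model of progenitor and genotype gave 91 and 29, a 2-fold minimum 51 and 20, and Xist and Y-linked levels as covariates 45 and 19; leaving out 1 array gave 94 to 171 higher and 31 to 56 lower, with 94 higher without Dnmt1+/+ cMoP replicate 1 and also without Dnmt1c/chip cMoP replicate 3. The replicate block gave 130 and 51, with 152 genes shared. Correlations of deviations between same-numbered arrays were −0.03 to 0.23 and not above 0.1 in every pair, so the numbers were not taken to pair the arrays. In the other genotype, 5 of 8 cMoP and 2 of 8 MDP arrays correlated best with their own number. In the other progenitor, 6 of 8 Dnmt1c/chip and 4 of 8 Dnmt1+/+ arrays did so. Whether same-numbered arrays of the 2 progenitors share animals is not stated. The immediate early level was nonetheless lower in Dnmt1c/chip in 8 of 8 same-numbered pairs. In both progenitors Dnmt1+/+ replicates 1 and 2 had high Xist and replicates 3 and 4 high Y-linked levels. Of the Dnmt1c/chip cMoP arrays, replicate 1 had high Xist and replicates 2, 3 and 4 high Y-linked levels. These signals were thus not balanced between the genotypes. Chosen after seeing the data, arrays of the same genotype and number as a random effect gave 142 and 47. Also chosen then was leaving out the 3 Dnmt1c/chip MDP arrays with both Xist and Y-linked signal, which leaves 1 array in that group. The immediate early level as a covariate gave 103 and 31, and the other 10 settings of probe sets, filter, scaling, variance and weights gave 136 to 194 higher and 40 to 63 lower. Of 1501 values of single named genes under the alternatives, 0 changed sign and 133 lost the call. In all 16 fits without an array 104 of the 188 genes kept their call, and 41 kept it there and with the covariates, without the 3 arrays, with the block and in the additive model, among them Tex12, Slc25a31, Clec11a, Rpl39l, Hormad2, Stag3, Cd68, Klk8, Ctsf, Flt3 and Gpc3. Second probe sets of Ddx39b (−0.16 and −0.10, against 0.40) and Prdm16 (−0.27, against 0.47) had the opposite sign. Those of Bex4 (0.24, against −0.49) and H2-Q5 (−0.145, against 0.965) had it in MDPs. That of Nos1ap had it in cMoPs (0.17, against −0.45).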

Other observations

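Genes that passed on the mean difference with opposite signs in the progenitors, and so lie outside the set described above, were 8 in number. Besides Gp5, Cpa3, Hdc and Il7r they were Gzmb, a granzyme of cytotoxic cells (2.35 in MDPs and −0.15 in cMoPs), Gpr141, an orphan receptor (1.51 and −0.04), Emilin2, an extracellular matrix glycoprotein (1.26 and −0.16), and Cmah, the enzyme that makes N-glycolylneuraminic acid in mice (−2.48 and 0.08). In all 8 the larger difference was the one in MDPs.

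Ncam1, a neural cell adhesion molecule also present on some blood cells, had the larger difference in cMoPs (−2.02, against −0.07 in MDPs). It lay at 4.81 to 5.11 in Dnmt1c/chip cMoPs, against 6.60 to 7.38 in Dnmt1+/+ cMoPs, and at 3.57 to 4.88 in Dnmt1c/chip MDPs, against 3.47 to 4.76 in Dnmt1+/+ MDPs. The interaction was −1.95 (SE 0.40) and did not pass limma's test after adjustment (adjusted p = 0.100). Ncam1 lies on chromosome 9, as Dnmt1 does, but outside the 25 genes on either side of it. The same holds, among other called genes, for Tex12 (mean difference 2.88) and Cryab (2.21, and 1.98 on its second probe set). Cryab lost the call with Xist and Y-linked levels as covariates (1.85, limma adjusted p = 0.0606). Whether flanking sequence of another strain plays a part at any of these genes was not tested.

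Car9, a carbonic anhydrase known as a target of the hypoxia response, rose by 1.42 in MDPs and 1.55 in cMoPs, and Ckm, the creatine kinase of muscle, by 1.14 and 1.03. The second probe set of Car9 gave 0.44 and that of Ckm 1.11.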
